A study of Mus musculus with 7 samples.

Results

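Potassium channel genes were taken as every protein-coding gene on chromosomes 1 to 19 of a RefSeq gene table (assembly GRCm38.p6) whose symbol begins with Kcn. The rule found 92 genes among 20661 protein-coding genes of those chromosomes, and 2 further Kcn genes on chromosome X were outside it. No measured value entered the choice. The 92 genes were grouped by symbol: 8 Kcna, 2 Kcnb, 4 Kcnc, 2 Kcnd, 8 Kcnh, 15 Kcnj, 14 Kcnk, 5 Kcnm, 4 Kcnn and 5 Kcnq genes, 10 electrically silent voltage-gated subunits (Kcnf, Kcng, Kcns, Kcnv), 3 sodium-activated or related channels (Kcnt, Kcnu) and 12 accessory subunits (Kcnab, Kcne, Kcnip, Kcnrg).

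Fos binding was mapped by chromatin immunoprecipitation and sequencing (ChIP-seq) in whole hippocampus. All mice were wild-type C57BL/6J aged 2 months. One group had saline. The other had kainic acid, an agonist of ionotropic glutamate receptors that provokes seizures, given into the peritoneum at 10 mg/kg in 2 injections 30 min apart; these mice reached level 4 seizures and were killed 1 hour after the first injection. Each group had 3 libraries, with 1 peak list per library, and an input library without a peak list completed the set. The number of animals behind each library is not in the labels, so p-values here measure only the spread between these samples, which may be technical. Because whole tissue was used, binding in fewer cells and weaker binding in each cell cannot be told apart.

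Potassium channels let potassium leave the cell and so set the resting potential, shape the action potential and limit repeated firing. Voltage-gated, calcium-activated, inwardly rectifying and tandem-pore leak channels are built from different families of pore-forming subunits, and accessory subunits alter their gating and traffic. Fos is made by neurons soon after strong activity and pairs with Jun proteins to form AP-1. This transcription factor binds the motif TGA(C/G)TCA, mostly at enhancers away from gene starts. The pattern TGANTCA searched below is looser, since it also admits A or T at the centre.

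Lists of kainic acid replicates 1, 2 and 3 had 15009, 63197 and 29650 peaks, and those of saline 7, 3277 and 2. The authors' fold of a peak over its local background, −log10 p and −log10 q belong to 1 library each and are not scaled between libraries. Peaks of all lists that overlapped by at least 1 bp were merged, and a merged stretch with peaks from 2 or more kainic acid lists is called a region below. There were 26862 regions, 11937 of them in all 3 lists. A gene was given every peak and region within 10 kb of its span. A region lay at 41.8% of all protein-coding genes. Markers of hippocampal neurons had one at 7 of 8 genes (60.9% of genes of the same length), astrocyte markers at 3 of 4 (47%), oligodendrocyte markers at 2 of 3 (51.7%), endothelial markers at 2 of 4 (52.0%), microglial markers at 0 of 4 (40.9%) and liver markers at 1 of 4 (34.9%). Which cells gave the binding near potassium channel genes was not tested.

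Start sequences are given first, because Fos binds a short motif and a start with that motif under a peak is the most direct view of such a site in these data. RefSeq start windows (250 bases before to 50 bases after a start) matched 68 of the 92 genes. In 4 of these 68 genes (5.88%) a window overlapped a region, beside 5.82% of all protein-coding genes with a window and 7.16% of genes of the same length, so the share for potassium channel genes was near that of other genes. The 4 genes were Kcnip4 and Kcnab2, at alternative starts inside their spans, and Kcnj6 and Kcnk10, at the 5′ ends of theirs. The looser AP-1 pattern TGANTCA, which reads as the same pattern on both strands, occurred in a window of 4 of 68 genes (5.88%), beside 8.23% of 16456 genes. The related cyclic AMP response element TGACGTCA, also its own reverse complement and not overlapping the first pattern, occurred in 0 of 68 genes, beside 2.63% of all.

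Kcnip4 was the gene with both a region and a motif in its start window. The 250 bases before that start (GRCm38.p6, chr5:49285660-49285909, minus strand), printed 5′ to 3′ with the motif in capitals, are as follows.
Kcnip4: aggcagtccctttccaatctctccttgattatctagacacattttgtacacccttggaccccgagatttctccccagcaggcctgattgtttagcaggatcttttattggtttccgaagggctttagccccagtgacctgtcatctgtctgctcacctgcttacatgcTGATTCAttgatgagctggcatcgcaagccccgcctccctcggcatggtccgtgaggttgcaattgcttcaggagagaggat
The motif, here TGATTCA with T at the centre, began 82 bases before the start. A region called in all 3 kainic acid lists (chr5:49285495-49286120) covered it, with folds of 4.36, 7.21 and 3.33 in replicates 1, 2 and 3. The 3 summits lay 49, 24 and 214 bp from the motif, and no saline list had a peak there.

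The other 3 start motifs are shown with 20 bases on each side, to set a motif with little or no called binding beside the Kcnip4 site; the motif is again in capitals.
Kcnip3: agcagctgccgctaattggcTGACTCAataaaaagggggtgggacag
Kcnk2: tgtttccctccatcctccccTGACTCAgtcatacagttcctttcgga
Kcne3: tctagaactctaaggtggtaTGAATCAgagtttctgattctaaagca
At Kcnip3 (minus strand, motif at chr2:127522210-127522216) and Kcnk2 (minus strand, chr1:189344312-189344318) the motif lay under a peak of kainic acid replicate 2 alone, with the summit 91 and 123 bp away. At Kcne3 (plus strand, chr7:100176633-100176639) no kainic acid list had a peak over it. The Kcnip3 and Kcnk2 motifs have C at the centre, as in TGA(C/G)TCA, while those of Kcne3 and Kcnip4 have A and T. A motif match here is a description of letters in the window and says nothing more about Fos.

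The other 3 genes with a region at a start had neither motif in the window. Their 250 bases before the start are printed because the region overlaps them, in full at Kcnk10 and in part at Kcnj6 and Kcnab2. All 3 are on the minus strand and nothing is in capitals.
Kcnj6: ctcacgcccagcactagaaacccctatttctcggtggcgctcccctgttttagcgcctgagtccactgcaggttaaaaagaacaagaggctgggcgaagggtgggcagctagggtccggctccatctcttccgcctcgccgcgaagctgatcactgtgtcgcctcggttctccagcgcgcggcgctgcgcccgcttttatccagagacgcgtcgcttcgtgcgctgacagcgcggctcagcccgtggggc
Kcnk10: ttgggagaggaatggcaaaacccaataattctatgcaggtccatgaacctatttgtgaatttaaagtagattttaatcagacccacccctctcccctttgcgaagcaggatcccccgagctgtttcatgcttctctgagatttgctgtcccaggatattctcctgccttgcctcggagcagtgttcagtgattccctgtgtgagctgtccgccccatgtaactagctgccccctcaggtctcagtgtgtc
Kcnab2: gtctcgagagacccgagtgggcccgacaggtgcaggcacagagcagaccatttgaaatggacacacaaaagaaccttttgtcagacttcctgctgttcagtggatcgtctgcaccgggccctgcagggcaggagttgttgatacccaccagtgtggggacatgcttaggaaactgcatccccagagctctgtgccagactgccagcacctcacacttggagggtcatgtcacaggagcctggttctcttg
The Kcnj6 stretch is chr16:94997697-94997946, the Kcnk10 stretch chr12:98578214-98578463 and the Kcnab2 stretch chr4:152452946-152453195. The Kcnk10 region was called in all 3 lists, with folds of 3.09, 10.3 and 3.92. The Kcnj6 region was called in replicates 2 and 3, with folds of 5.24 and 3.66, and the Kcnab2 region in the same replicates, with folds of 3.18 and 3.48. Both Kcnj6 summits (chr16:94997095 and chr16:94997422) lay inside the gene, outside the printed stretch. At Kcnk10 only the summit of replicate 3 lay in the stretch, and at Kcnab2 both summits did.

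The first comparison asked whether Fos peaks near potassium channel genes differed between saline and kainic acid. After kainic acid, 46 of the 92 genes had a peak in replicate 1, 73 in replicate 2 and 60 in replicate 3. In saline the numbers were 0, 21 and 0. The lowest kainic acid library was above the highest saline library, so the groups did not overlap. The mean was 59.7 ± 13.5 genes (SD, n = 3) after kainic acid and 7 ± 12.1 (SD, n = 3) in saline, a difference of 52.7 genes (two-sided exact permutation test, p = 0.1, which is the smallest p that 3 against 3 libraries allow). The libraries stood in the order of the lengths of their lists. Over all protein-coding genes, 27.7%, 62.6% and 42.7% had a peak in kainic acid replicates 1, 2 and 3, where the potassium channel genes stood at 50.0%, 79.3% and 65.2%. Genes of the same length stood at 37.9%, 73.1% and 53.6%, so the potassium channel share was above theirs in each of the 3 lists. In saline replicate 2 the share was 22.8%, beside 17.9% of all genes and 20.4% of genes of the same length.

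Peaks near the 92 genes numbered 158, 645 and 315 in the kainic acid lists, which was 1.05%, 1.02% and 1.06% of each list, and 30 (0.916%) in the list of saline replicate 2. They were about as strong as other peaks. Their median fold was 4.302 beside 4.356 for the whole list in replicate 1, 4.32 beside 4.40 in replicate 2 and 3.97 beside 3.97 in replicate 3. The highest folds near a potassium channel gene were 11.3, 22.7 and 16.5.

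**Figure D1:**
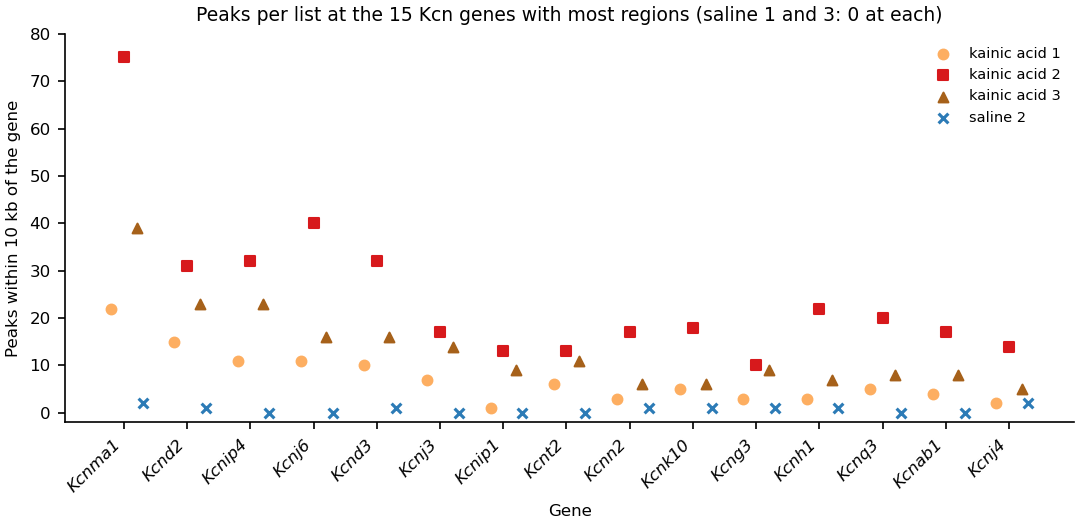
Number of peaks within 10 kb of the gene (vertical axis) for the 15 potassium channel genes with the most regions (horizontal axis). Each point is 1 library, from kainic acid replicates 1, 2 and 3 and saline replicate 2. Saline replicates 1 and 3 had 0 peaks at each gene and are not drawn. Kcnma1 had the highest count in each kainic acid list, with 22, 75 and 39 peaks, and replicate 2 gave the highest count at each of these genes.

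The second comparison set potassium channel genes against other genes of like length, since a long gene has more room for peaks. Of the 92 genes, 61 (66.3%, 95% Clopper-Pearson interval 55.7% to 75.8%, counting error only) had a region, beside 41.8% of all protein-coding genes. Averaged over the length classes of the 92 genes (10 classes of equal size by span), 52.7% of the other protein-coding genes had one. The potassium channel share was therefore 13.6 percentage points above that of genes of the same length. With regions in all 3 lists the counts were 41 of 92 (44.6%), beside 25.0% of all genes and 34.6% of genes of the same length. These shares are a description with no test, since genes near each other and of 1 family are not independent.

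The excess over length was present among short and long genes. In the 5 shorter length classes 13 of 29 potassium channel genes (44.8%) had a region, beside 31.5% for their lengths. In the 5 longer classes it was 48 of 63 (76.2%), beside 62.5%. Among the longest genes (109.1 to 2271 kb) 22 of 23 had a region, beside 84.5% of other genes, and the exception was Kcnh8. The potassium channel genes in that class were also longer than the rest of it, with a median span of 321 kb beside 185.1 kb. Their median density, 1.64 regions per 100 kb of span and flanks, stood beside 1.29 in the rest of the class. Over all 92 genes, 55 (59.8%) had more regions than the median of their length class, 29 had the same number and 8 had fewer; 35.4% of other genes had more than the median of their class.

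Nearly all regions included a peak of the longest list, as they did over the genome. Of the 279 distinct regions near potassium channel genes, 120 (43.0%) were in all 3 lists, 136 (48.7%) in replicates 2 and 3 only, 20 in replicates 1 and 2 and 3 in replicates 1 and 3. Over all regions, 44.4% were in all 3 lists and 48.9% in replicates 2 and 3 only. Without kainic acid replicate 2, 44.6% of the potassium channel genes had a region in both remaining lists, beside 25.2% of all genes and 34.9% of genes of the same length. Without replicate 3 the shares were 47.8%, 26.9% and 37.0%. Without replicate 1 only Kcnq5 lost its regions. In total 41 of the 61 genes kept a region whichever library was left out.

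**Figure D2:**
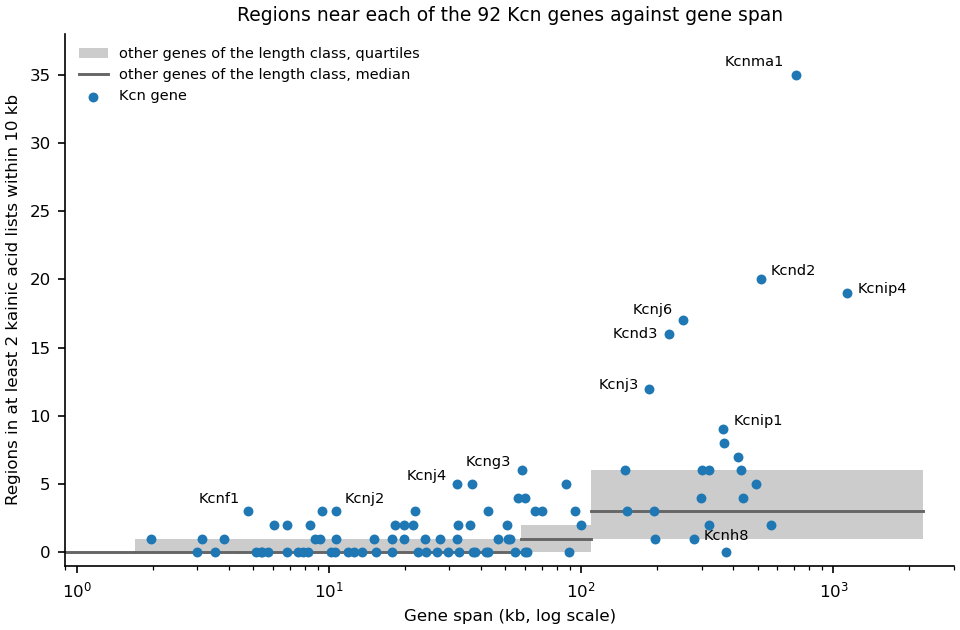
Number of regions within 10 kb (vertical axis) against gene span in kb (horizontal axis, log scale); each blue point is 1 of the 92 potassium channel genes, grey bands are the quartiles and dark lines the medians of other protein-coding genes in each of 10 length classes. Kcnma1, with 35 regions, stands highest, and 22 of the 23 genes in the longest class have at least 1 region.

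The number of regions per gene was very uneven. There were 31 genes with 0 regions, 17 with 1, 26 with 2 to 4 and 18 with 5 or more. The 5 genes with the most, Kcnma1, Kcnd2, Kcnip4, Kcnj6 and Kcnd3, held 107 regions, or 38.2% of the total. Pooled over the 92 genes there were 2.24 regions per 100 kb, beside 1.65 over all protein-coding genes; without those 5 genes the value was 1.81. Without replicate 2 the pooled density was 0.98, beside 0.72 over all genes, and without replicate 3 it was 1.12, beside 0.80.

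Subfamilies differed in how many of their genes had a region, and each is given beside the share of other genes of the same length. All 4 Kcnc, 5 Kcnq, 2 Kcnb and 2 Kcnd genes had one, where 53.4%, 73.5%, 74.4% and 84.5% of genes of those lengths did. The share was 7 of 8 in Kcnh (length share 63.3%), 4 of 5 in Kcnm (60.6%), 9 of 12 among accessory subunits (50.5%) and 7 of 10 among silent subunits (43.0%). It was 4 of 8 in Kcna (34.9%), 7 of 14 in Kcnk (48.6%), 7 of 15 in Kcnj (46.9%), 2 of 4 in Kcnn (61.0%) and 1 of 3 in Kcnt and Kcnu (66.2%). With these settings, the inward rectifiers and the leak channels were within 2 points of their length shares. This order depended on the settings. Over 10 other settings (reach, q threshold, lists required, left-out libraries and the like), Kcnb, Kcnc, Kcnd, the silent and the accessory subunits stayed above their length shares, and each of the other 8 groups crossed its own at least once. Kcnq ranged from 35.4 points below its length share to 34.8 above, and Kcnm from 4.91 below to 21.9 above. Kcnj, reported as 0.25 points below its length share, lay above it in 9 of the 10 other settings, by up to 23.2 points. Kcnk ranged from 1.55 points below to 11.1 above. The families are small, and the 95% Clopper-Pearson interval of every one included its length share: from 39.8% to 100% for the 4 Kcnc genes and from 21.3% to 73.4% for the 15 Kcnj genes.

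**Figure D3:**
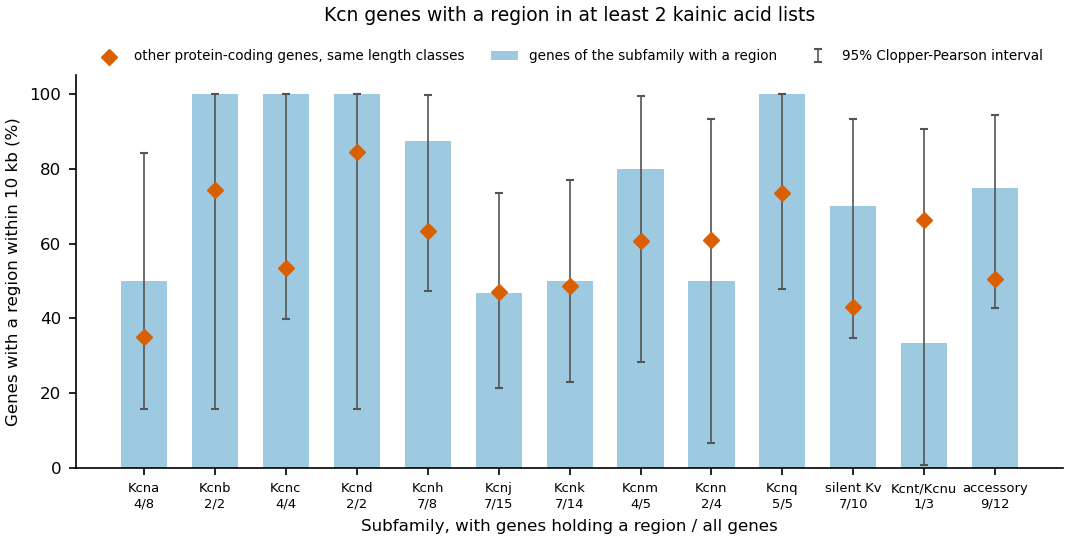
Percentage of genes with a region (bars, vertical axis) in each subfamily (horizontal axis, with the number of genes), with 95% Clopper-Pearson intervals as error bars and the share of other protein-coding genes of the same length classes as diamonds. Bars of Kcnj (46.7%) and Kcnk (50%) sit near their diamonds, and the bar of all 4 Kcnc genes stands above its own at 53.4%.

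Among voltage-gated channels, Kcnd genes had the most regions. Kcnd2 and Kcnd3 encode pore subunits of A-type channels, which open at low voltage in dendrites and inactivate fast. Kcnd2 (chr6:21215346-21729805, 514.5 kb) had 15, 31 and 23 peaks in kainic acid replicates 1, 2 and 3 and 0, 1 and 0 in saline. Kcnd3 (chr3:105451890-105674002, 222.1 kb) had 10, 32 and 16 after kainic acid and 0, 1 and 0 in saline. At both genes every kainic acid library was above every saline library. Such a separation is not particular to them, since the lists of saline replicates 1 and 3 held 7 and 2 peaks in all. A peak of kainic acid replicate 1, the shortest kainic acid list, lay at 27.7% of all genes. In the length class of Kcnd2 and Kcnd3, 67.5% of other genes had a region in all 3 lists. The share of genes with this separation was not computed. Kcnd2 and Kcnd3 held 20 and 16 regions, 7 and 9 of them in all 3 lists. Their densities of 3.74 and 6.61 per 100 kb stood beside a median of 1.29 for their length class. Of other genes in that class, 96.3% had fewer regions than Kcnd2 and 93.5% fewer than Kcnd3. Those other genes had a median span of 185.1 kb, and genes near the length of Kcnd2 were not compared alone. Without replicate 2, Kcnd2 and Kcnd3 had 8 and 9 regions, and without replicate 3 they had 11 and 10.

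All 4 Kv-channel-interacting proteins, calcium-binding partners of Kcnd channels, had a region, beside 68.2% of genes of the same length (95% Clopper-Pearson interval 39.8% to 100%). Kcnip4 (chr5:48389503-49525122), the longest of the 92 genes at 1136 kb, had 11, 32 and 23 kainic acid peaks, 0 saline peaks and 19 regions, 10 of them in all 3 lists. Its density was 1.64 per 100 kb, beside a median of 1.29 for its class, in which 95.6% of other genes had fewer regions. Other genes of that class had a median span of 185.1 kb, and genes near the length of Kcnip4 were not compared alone. The number of regions was 10 without replicate 2 and 11 without replicate 3. Kcnip1 had 1, 13 and 9 peaks and 9 regions, none in all 3 lists, and without replicate 2 or without replicate 3 none was left. Kcnip3, also known as the transcriptional repressor DREAM, had 2, 7 and 3 peaks and 3 regions. Kcnip2 had 0, 5 and 1 peaks and 1 region, which lay 421 bp from a start and was lost without replicate 2 or without replicate 3.

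The Kcnc genes, whose channels let neurons fire at high rates, included the strongest single region. Kcnc4, a gene of 21990 bp (chr3:107438298-107460287), had 3, 7 and 4 kainic acid peaks, none in saline, and 3 regions, all in all 3 lists. Its region at chr3:107446467-107447571 had folds of 11.3, 22.7 and 12.4, and the 3 summits lay within 17 bp of each other. Within each list this placed it in the top 0.93%, 0.18% and 0.61% of peaks by fold. Its other intragenic region (chr3:107441657-107443142) had folds of 8.97, 18.6 and 16.5. Kcnc1 had 0, 8 and 3 peaks and 3 regions, none left without replicate 2 or without replicate 3. Kcnc2 had 1 region, in all 3 lists.

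The Kcnb, Kcna and Kcnh genes ranged from 0 to 6 regions. Kcnb2, a delayed rectifier of the soma and proximal dendrites, had 4 regions, with a density of 0.88 per 100 kb beside a class median of 1.29; 1 was left without replicate 2 and 2 without replicate 3. Kcna1, Kcna3, Kcna4 and Kcna6 had 3, 1, 2 and 2 regions; these genes encode low-threshold channels of axons and terminals. Without replicate 2 they had 0, 1, 1 and 1, and without replicate 3 they had 1 each. Kcna2, a partner of Kcna1 in axonal channels, had no region and 1 peak, in replicate 2. In Kcnh, the ether-a-go-go family, Kcnh1 had 6 regions and Kcnh7 had 5, while Kcnh2, Kcnh4, Kcnh5 and Kcnh6 had 1 each and Kcnh3 had 2. Without replicate 2, Kcnh1 and Kcnh7 had 2 each, and without replicate 3 they had 3 each; Kcnh2, Kcnh3 and Kcnh5 had 0 in both cases. Kcnh8 spans 376.5 kb and had 0 peaks in each of the 6 lists; 15.5% of other genes in its length class had no region.

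All 5 Kcnq genes had a region, but most of these were in 2 lists only. Kcnq3 encodes a subunit of the M-current, which muscarinic receptors close. It had 5, 20 and 8 kainic acid peaks and 6 regions, of which 2 were left without replicate 2 and 2 without replicate 3. No Kcnq gene had a peak in a saline list. With all 3 lists required, Kcnq3 alone of the 5 had a region (20%), beside 55.0% of genes of the same length. Without replicate 1, 80% of the family had one, beside 71.8% of genes of the same length. Without replicate 2 the share was 20%, beside 55.4%, and without replicate 3 it was 60%, beside 58.4%.

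Silent subunits, which do not conduct alone and modify Kcnb channels, had a region at 7 of 10 genes. Kcng3 (58.0 kb) had 3, 10 and 9 kainic acid peaks, a saline peak in replicate 2 and 6 regions, or 7.70 per 100 kb beside 1.09 for its class; 3 were left without replicate 2 and 3 without replicate 3. Kcnf1, a gene of 4.79 kb, had 1, 6 and 3 peaks and 3 regions, more than 97.8% of genes of its length; 1 was left without replicate 2 and 1 without replicate 3. Kcng4, Kcns1 and Kcns3 had no kainic acid peak.

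Among calcium-activated channels, Kcnma1 stood apart. It encodes the pore of the large-conductance BK channel, which couples calcium entry to repolarisation. Kcnma1 (chr14:23292288-24005110, 712.8 kb) had 22, 75 and 39 kainic acid peaks and 0, 2 and 0 saline peaks. It held 35 regions, 19 of them in all 3 lists, and only 15 protein-coding genes of the 20661 had more. Its density was 4.78 per 100 kb beside 1.29 for its class, in which 99.0% of other genes had fewer regions. Other genes of that class had a median span of 185.1 kb, and genes near the length of Kcnma1 were not compared alone. Without replicate 2 Kcnma1 had 19 regions, and without replicate 3 it had 20. Its strongest region (chr14:23750586-23752582) had folds of 11.3, 22.7 and 10.5 and lay 251623 bp from the nearest start.

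The BK auxiliary subunits had far fewer regions than the pore gene. Kcnmb4, the main brain subunit, had 2, 12 and 6 peaks and 4 regions, of which 2 were left without replicate 2 and 1 without replicate 3. Kcnmb2 had 0, 6 and 4 peaks and 4 regions, none of which was left without replicate 2 or without replicate 3. Kcnmb1 had 1 region, which it shared with Kcnip1 because its span lies inside Kcnip1, and which was lost without replicate 2 or without replicate 3. Kcnmb3 had no region. In the small-conductance family, which underlies the afterhyperpolarisation, Kcnn2 had 3, 17 and 6 peaks and 7 regions, and Kcnn3 had 2, 14 and 3 peaks and 3 regions. Kcnn2 had 2 regions without replicate 2 and 3 without replicate 3, and Kcnn3 had 2 in both cases. Kcnn1 had 1 peak, in replicate 2, and Kcnn4, best known from red blood cells and lymphocytes, had none. Of the sodium-activated channels, Kcnt2 had 6, 13 and 11 peaks and 8 regions, 5 of them in all 3 lists and 5 left without replicate 2 or without replicate 3. Kcnt1 had 1 peak, in replicate 2. Kcnu1, a channel of sperm, had none.

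Among the 15 inward rectifiers, the G-protein-gated subunits Kcnj6 and Kcnj3, which carry slow inhibition, had the most regions. Kcnj6 (chr16:94744980-94997696) had 11, 40 and 16 kainic acid peaks, none in saline, and 17 regions, 9 of them in all 3 lists; its density was 6.23 per 100 kb beside 1.29 for its class. Kcnj3 had 7, 17 and 14 peaks, none in saline, and 12 regions. Without replicate 2 these genes had 9 and 6 regions, and without replicate 3 they had 11 and 5. Kcnj9, of the same type, had 1 region that lay nearer to another gene and was lost without replicate 2 or without replicate 3, and Kcnj5 had none. Of the strong rectifiers, Kcnj4 (32.3 kb) had 2, 14 and 5 peaks and 5 regions, more than 98.3% of genes of its length; 2 were left without replicate 2 and 2 without replicate 3. Kcnj2 had 3, 5 and 5 peaks and 3 regions in all 3 lists, each upstream of the gene, 1189, 6165 and 9516 bp from it. Kcnj12 had 2 regions, of which 1 was left without replicate 2 or without replicate 3. The 8 Kcnj genes with 0 regions were Kcnj1, Kcnj5, Kcnj8, Kcnj10, Kcnj13, Kcnj14, Kcnj15 and Kcnj16. They include Kcnj10 and Kcnj16, which form the inward rectifier of astrocytes, and Kcnj1 and Kcnj13, known from epithelia. Kcna2, a partner in axonal channels, also had 0 regions. Astrocyte markers had a region at 3 of 4 genes, beside 47% of genes of the same length. A link between regions and the cell type of a channel was not tested.

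Of the 14 tandem-pore leak channels, 7 had a region. Kcnk10 and Kcnk2, leak channels opened by membrane stretch and fatty acids, had 6 and 3. Kcnk10 had 5, 18 and 6 kainic acid peaks and Kcnk2 had 3, 11 and 4. Kcnk2 held a strong region at chr1:189271925-189273273, with folds of 9.87, 18.1 and 13.0. Kcnk1 (37.0 kb) had 4, 16 and 7 peaks and 5 regions, 4 of them in all 3 lists, more than 97.2% of genes of its length. Kcnk13 had 2 regions, and Kcnk4, Kcnk9 and Kcnk12 had 1 each; those of Kcnk13 and Kcnk9 were lost without replicate 2 or without replicate 3. The genes with 0 regions were Kcnk3, Kcnk5, Kcnk6, Kcnk7, Kcnk15, Kcnk16 and Kcnk18, and of these only Kcnk3 and Kcnk6 had a kainic acid peak, 3 each in replicate 2.

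The remaining accessory subunits are the Kcnab and Kcne genes and Kcnrg. All 3 Kcnab genes, β subunits of Kcna channels, had a region, beside 59.5% of genes of the same length (95% Clopper-Pearson interval 29.2% to 100%). There were 6 in Kcnab1, 5 in Kcnab2 and 2 in Kcnab3. Kcnab1 had 2 without replicate 2 and 3 without replicate 3, and Kcnab2 kept 1 of its 5 without replicate 2 and 1 without replicate 3. Kcne3 and Kcne4, small single-span subunits, had 2 and 1 regions, or 1 and 0 without replicate 2 or without replicate 3, and Kcne1 and Kcne2 had none. Kcnrg had no peak in any list.

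Of the 31 genes with 0 regions, 19 had no kainic acid peak in any list. They were Kcna5, Kcna7, Kcna10, Kcng4, Kcnh8, Kcnj1, Kcnj8, Kcnj13, Kcnj16, Kcnk5, Kcnk7, Kcnk15, Kcnk16, Kcnk18, Kcnn4, Kcnrg, Kcns1, Kcns3 and Kcnu1. The other 12 had a peak in replicate 2, and only Kcne1 among them had a peak in another kainic acid list, replicate 1, at another position. A gene with 0 regions is one where none was called at these thresholds, and absence of a call does not show absence of Fos.

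**Figure D4:**
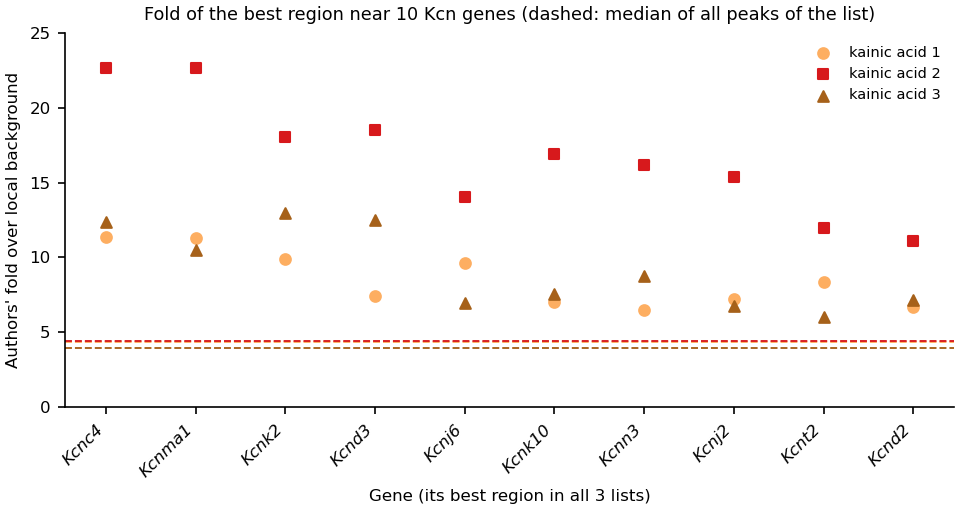
The authors' fold over local background (vertical axis) of the best region of each of the 10 potassium channel genes with the strongest region in all 3 kainic acid lists (horizontal axis); points are the 3 libraries and dashed lines the median fold of each whole list. The Kcnc4 region had folds of 11.3, 22.7 and 12.4, where the list medians were 4.36, 4.40 and 3.97.

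The strongest regions were spread over the families. By mean percentile of fold in the 3 lists, the 10 leading genes were Kcnc4, Kcnma1, Kcnk2, Kcnd3, Kcnj6, Kcnk10, Kcnn3, Kcnj2, Kcnt2 and Kcnd2. The Kcnd3 region (chr3:105480778-105482121) had folds of 7.45, 18.5 and 12.5. The Kcnj6 region (chr16:94883062-94883797) had folds of 9.60, 14.03 and 6.93. The percentile of a region is the percent of peaks of a list with a higher fold, averaged over the lists that called the region. As a group, regions near potassium channel genes were of ordinary strength: 20 of 279 (7.17%) had a mean percentile under 10, beside 7.77% of all regions. Their median width was 694 bp, beside 686 bp for all regions. In the 120 regions found in all 3 lists, the summits spanned a median of 121 bp, and in 47 (39.2%) they lay within 100 bp.

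Most regions lay inside the gene spans, and most of those with a start to measure from lay over 10 kb from it. Of 280 pairs of a region and a gene, 245 (87.5%) had the region inside the gene span, 11 upstream, 14 downstream and 10 in a flank of a gene whose strand was not given. In the 43 genes with a region and a RefSeq start, 7 of 233 pairs (3.00%) were within 1 kb of a start, 34 (14.6%) at 1 to 10 kb, 61 (26.2%) at 10 to 50 kb and 131 (56.2%) farther away. For other genes, 11.9% of pairs were within 1 kb of a start, or 7.81% when averaged over the same length classes. The share inside the span and the shares at larger distances were not computed for other genes. A long gene has more room inside its span and far from a start, and 5 genes held 107 of the regions. Of pairs outside the span, 7 had another protein-coding gene nearer: they belonged to Kcnj9, Kcnmb1, Kcnab3, Kcnh4, Kcnj4, Kcnh3 and Kcnk4.

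The long genes differed in where along the span the regions fell. In Kcnma1, 23 of the 33 intragenic regions lay nearer the 5′ end and 10 nearer the 3′ end, and in Kcnip4 the numbers were 15 and 4. Kcnd2 showed the opposite order, with 4 nearer the 5′ end and 16 nearer the 3′ end, and its first region lay 152 kb from the start of the span. Kcnd3 had 11 and 5, and Kcnj6 had 8 and 9. Neighbouring regions were a median of 8.26 kb apart in Kcnma1, 9.73 kb in Kcnd2, 8.34 kb in Kcnd3, 15.3 kb in Kcnj6 and 34.7 kb in Kcnip4.

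**Figure D5:**
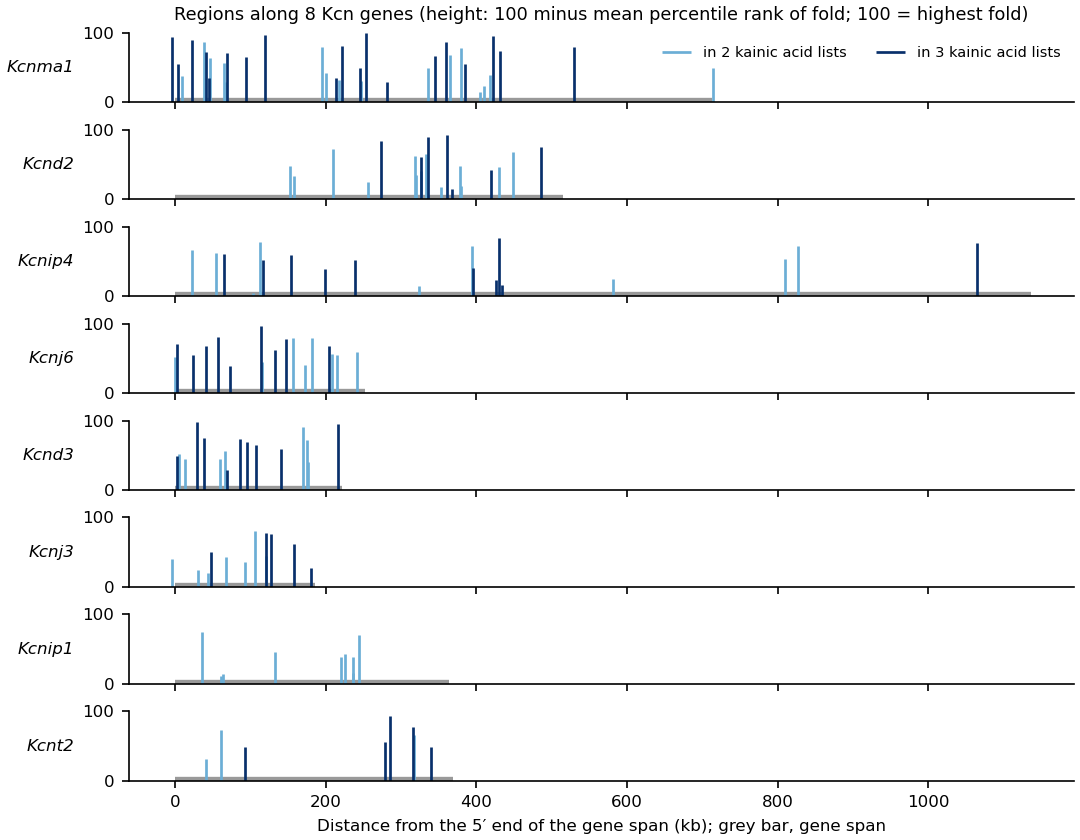
Regions along 8 potassium channel genes with the most regions; the horizontal axis is the distance from the 5′ end of the span in kb, each vertical line is 1 region (dark, in all 3 kainic acid lists; light, in 2), and its height is 100 minus its mean percentile of fold, so tall lines are strong regions. Kcnd2 has no region in the first 152 kb of its span, whereas 23 of 33 intragenic regions of Kcnma1 lie nearer its 5′ end.

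Saline peaks near potassium channel genes came from 1 library. Saline replicate 2 had 30 peaks at 21 of the 92 genes, and saline replicates 1 and 3 had none. Kcnab2 and Kcnk4 had 3 each; Kcnma1, Kcnj4, Kcnh3, Kcnab3 and Kcnj14 had 2 each; and Kcna6, Kcnc1, Kcnd2, Kcnd3, Kcng3, Kcnh1, Kcnh4, Kcnip2, Kcnip3, Kcnk2, Kcnk10, Kcnn1, Kcnn2 and Kcnv1 had 1 each. Of the 30, 9 (30%) overlapped a kainic acid peak and 3 (10%) overlapped peaks of at least 2 kainic acid lists, beside 33.2% and 14.3% of all 3277 peaks of that list. Those 3 lay in Kcnma1 (chr14:23885080-23886403), Kcnj4 (chr15:79502333-79503798) and Kcnc1 (chr7:46415702-46416859). Of these 30 saline peaks, 8 had a summit within 1 kb of an end of the potassium channel gene, and 9 lay within 1 kb of another protein-coding gene. Both shares were not computed for the whole list, so they are not set apart from it. Of regions near potassium channel genes, 1.08% also had a saline peak, beside 2.01% of all regions.

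Proteins that partner potassium channels without a Kcn symbol were counted as well, from a list of 14 genes. A region was found at 11 of them (78.6%), beside 41.8% of all genes and 58.5% of genes of the same length. Ank3, which anchors Kcnq channels at the axon initial segment, had 21, 76 and 45 kainic acid peaks and 35 regions. Dpp6, an auxiliary subunit of Kcnd channels, had 14, 44 and 27 peaks and 24 regions, whereas its relative Dpp10, a gene of 1514 kb, had 2, 6 and 2 peaks and 2 regions. Lgi1, a secreted protein that acts on Kcna channels, had 8 regions in 44.3 kb, and Amigo1, which associates with Kcnb channels, had 5 in 6.00 kb. Cntnap2, which clusters Kcna channels along axons, had 10 regions. Lrrc26, Lrrc52 and Cntn2 had none. Without replicate 2, Ank3, Dpp6, Cntnap2, Lgi1 and Amigo1 had 18, 14, 4, 1 and 3 regions, and without replicate 3 they had 19, 14, 5, 2 and 3; Dpp10 had 1 without replicate 1 and 1 without replicate 3.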

How the data were processed

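Fos ChIP-seq peak lists of mouse hippocampus were analysed, 1 for each of 3 saline and 3 kainic acid libraries, grouped by the treatment in the labels. Per the submitters' processing notes, Trim Galore 0.6.4, Bowtie2 2.3.4.3, MACS2 and deepTools 3.5.0 were used with the build mm10; the roles of these tools, the control library and the cutoff are not given in the sources used here. The deposited lists have 10 columns without a header. Their fold is a linear ratio of a peak to its local background, while −log10 p and −log10 q, as deposited by the authors, likewise refer to 1 library each. The lowest −log10 q was 1.35 to 1.38 in the 4 long lists. Read depth is not given in the sources used here, so no interval for a fold was computed and list length stands in for it.

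Peaks were merged at 1 bp overlap with Python 3.11.15, pandas 2.3.3 and numpy 2.4.6 and counted within 10 kb of gene spans (RefSeq table, GRCm38.p6, the assembly that mm10 names). Length-standardised shares average the share of other protein-coding genes over the length classes of the genes described (10 classes of equal size). The number of genes with a peak was compared by a two-sided exact permutation test over 20 assignments (SciPy 1.17.1); shares have 95% Clopper-Pearson intervals. On simulated lists, 2000 of 2000 genes received the right count. Same-numbered libraries were not treated as pairs, because no label ties a number to a common animal, batch or day, and 2 saline lists have no peak near these genes, so pairing could not be checked. The genes described one by one were the 25 with the most regions, the 10 with the strongest region in all 3 lists, those with a saline peak or a region at a start, those without a region, and those whose regions depended on 1 library; other family members were added after their values were seen. The genes and lists were chosen with earlier results of these data known. Alternatives covered reach, q threshold, number of lists, equal list lengths, length classes, left-out libraries and assignment to the nearest gene. Start sequences came from RefSeq (GRCm38.p6); sequences under peaks away from starts were not used here. Values of some single members are not reported here.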

Additional observations from a re-analysis of the deposited data

How the results depend on the processing

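The share of potassium channel genes with a region, 66.3%, moved with the setting: 50% inside the gene span only, 83.7% within 50 kb, 44.6% at −log10 q of at least 10, 44.6% in all 3 lists, 52.2% with 15009 peaks taken from each kainic acid list, and 44.6% to 65.2% when 1 library was left out. The share of other genes moved too. The excess over genes of the same length, 13.6 percentage points, lay between 7.72 (inside the span) and 15.9 (−log10 q of at least 10), between 9.67 and 13.9 when 1 library was left out, and at 12.7 with 20 length classes. Counting a region only for its nearest gene, an alternative chosen after seeing the data, gave a share of 62.0% and an excess of 15.3 points. The pooled density, 2.24 per 100 kb, was 1.41 at −log10 q of at least 5, 0.62 at 10 or more, 0.96 in all 3 lists, 1.02 with equal numbers of peaks and 0.98 to 2.06 when 1 library was left out; fewer peaks enter under each of these settings. The difference in genes with a peak between kainic acid and saline was 40 to 67.7 genes over the other thresholds and reaches, 46 to 59.7 when 1 library was left out, and 2.01 on a scale of log10(peaks + 1). With the replicate number as a block (same-numbered libraries as pairs, exact sign-flip permutation test) it was 52.7 genes, p = 0.25, the smallest p that 3 pairs allow. Of 130 subfamily shares recomputed, 8 left the 95% Clopper-Pearson interval of the share reported, 21 moved by over 1.5 times, and 26 lay on the other side of the length share, in 8 of the 13 groups. Of 370 recomputed region counts of 37 named genes, 164 moved by more than 1.5 times, 157 to fewer regions and 39 of these to 0. The excess over length for all 92 genes did not change sign under the settings run. The difference between kainic acid and saline kept its sign too, but these settings could hardly reverse it. Saline lists 1 and 3 held 7 and 2 peaks in all and had 0 of the 92 genes within 10 kb of a peak. Read depth is unknown, and the shortest kainic acid list limits which regions could be in all 3.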
